A study of Mus musculus with 4 samples.

Results

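Open chromatin and transcription factor footprints were described at 3 mouse loci named for genes of the ETS family of transcription factors, Spi1, Spib and Ets1, in classical dendritic cells type 1 (cDC1) and plasmacytoid dendritic cells (pDC). The loci, lists and rules were chosen with earlier results of these data known. Within this choice, the members were taken by position alone, as every peak interval and every footprint that overlapped 1 of 3 windows in mm9 coordinates. These windows run from 90.88 to 90.97 Mb on chromosome 2 for Spi1, from 51.76 to 51.81 Mb on chromosome 7 for Spib and from 32.35 to 32.65 Mb on chromosome 9 for Ets1. They held 30 of 83701 cDC1 intervals and 32 of 51941 pDC intervals. Footprints, short stretches protected from the transposase inside a peak, numbered 207 of 513689 in cDC1 and 207 of 312959 in pDC. Intervals of both cell types that overlapped by at least 1 bp were joined into regions, which gave 43 of 93615 regions, all 43 of them wholly inside a window. Regions are numbered along each locus in the order of their coordinates.

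Both cell types were grown from mouse bone marrow in a culture with Flt3 ligand and separated by sorting, cDC1 as CD11c+ CD11b+ XCR1+ cells and pDC as CD11c+ CD11b- B220+ cells. No source used here states the strain or age of the mice. Omni-ATAC-seq, in which a transposase cuts accessible DNA, was performed on 2 replicates of each cell type, and the authors merged the replicates before footprints were called. Each cell type is therefore 1 peak list and 1 footprint list, no spread between replicates can be given, and no p-value was computed. The 95% intervals printed with shares and ratios cover counting error only. The lists differ in size and in level, with a median of 212 tags per footprint in cDC1 and 100 in pDC, and sequencing depth itself is not written in them. The cell type labels were not checked against marker genes, because the positions of those genes in mm9 were not used here.

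ETS factors share a DNA-binding domain that recognises a GGAA core. Spi1 encodes PU.1, a factor that opens chromatin in myeloid cells and is required for dendritic cell development, and whose gene is known for a strong upstream enhancer. Spib encodes Spi-B, its closest relative, which is known for its part in B cells and pDC. Ets1, best known from T, B and natural killer cells, is a founding member of the family. Other genes lie next to them. In the RefSeq gene table of GRCm38.p6, the protein-coding genes on either side are Slc39a13 and Mybpc3 for Spi1, Mybpc2 and Pold1 for Spib, and Fli1, another ETS gene, and Kirrel3 for Ets1. No mm9 annotation was used here, so no region was assigned to a promoter, an intron or a gene.

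The promoter table from RefSeq held 1 of the 3 members, Spib. It is shown because Spib is the locus whose strongest region by −log10 q, a peak measure explained below, differed between the cell types. The ETS core is in capitals (TTCC as printed is GGAA on the other strand). The sequence is 300 bases in GRCm38.p6, chr7:44532022-44532321, minus strand, read 5′ to 3′ along the gene.
Spib promoter: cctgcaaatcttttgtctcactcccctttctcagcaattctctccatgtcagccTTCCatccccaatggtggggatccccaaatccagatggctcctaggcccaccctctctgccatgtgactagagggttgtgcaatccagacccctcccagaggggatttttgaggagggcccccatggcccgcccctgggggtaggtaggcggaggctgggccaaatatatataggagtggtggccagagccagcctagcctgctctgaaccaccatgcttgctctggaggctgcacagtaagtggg
On both strands together it held GGAA 1 time and the longer form GAGGAAGT, searched on both strands and itself holding GGAA, 0 times. Of 32851 promoters of this length in the table, 96.0% held GGAA and 3.20% held GAGGAAGT, so the GGAA match is common. Which interval of the mm9 lists covers this sequence was not determined.

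The 3 loci differed in the cell type in which their regions were found. At Spi1, 5 of 15 regions were found in cDC1 only and 1 in pDC only. At Spib, 1 of 10 was found in cDC1 only and 4 in pDC only, and at Ets1 5 of 18 were found in cDC1 only and 8 in pDC only. Over the whole genome 45.5% of regions were found in cDC1 only, 11.0% in pDC only and 43.5% in both cell types. The share found in pDC only was thus 6.67% at Spi1 (exact 95% interval 0.169 to 31.9%), 40.0% at Spib (12.2 to 73.8%) and 44.4% at Ets1 (21.5 to 69.2%). The interval of Spi1 holds the genome-wide share, while those of Spib and Ets1 lie above it, that of Spib by a small margin. Neighbouring regions of one locus are not independent, so these intervals are a description. At Spib and Ets1 the pDC list had more intervals than the longer cDC1 list, with 6 intervals in cDC1 and 9 in pDC at Spib, and 10 in cDC1 and 13 in pDC at Ets1. Spi1 had 14 intervals in cDC1 and 10 in pDC.

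**Figure D1:**
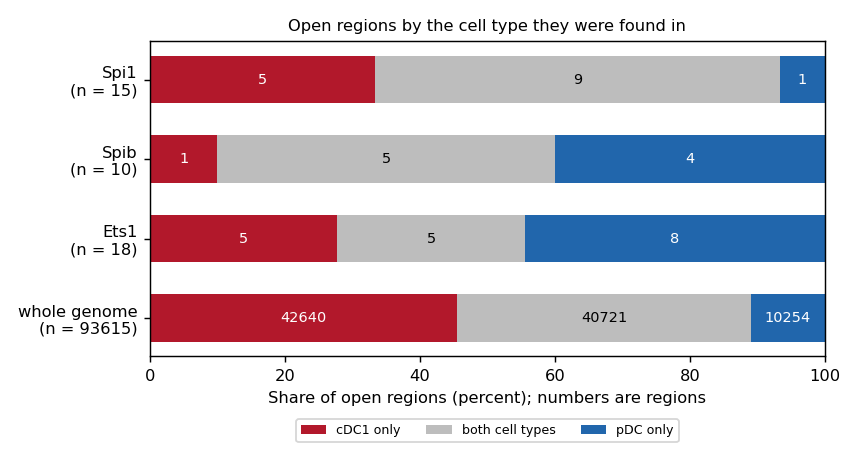
Share of open regions (x axis, percent) found in cDC1 only, in both cell types and in pDC only, for the 3 loci and the whole genome; numbers in the bars are regions. Regions found in pDC only are 1 of 15 at Spi1, 4 of 10 at Spib and 8 of 18 at Ets1, against 10254 of 93615 in the genome.

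To compare levels, the tag count of a footprint was used, the whole number deposited for it. It was read here as sequenced cuts counted around the footprint, in a window whose size is not given. A cDC1 and a pDC footprint were paired where the overlap covered at least 50% of each, and the ratio of the cDC1 to the pDC count was divided by 3.28, the median of 91319 pairs in the genome. A region was represented by its pair with the most tags and called higher in a cell type at 2-fold or more. Of 31914 such regions in the genome, 8.93% were called higher in cDC1 and 12.6% higher in pDC. Among the 17 regions of the loci with a pair, 1 was called higher in cDC1, at Spi1, and 3 higher in pDC, of which 2 lay at Spib and 1 at Ets1. With so few regions these counts were not read as departures from the genome-wide shares. At a limit of 1.5-fold, which 18.2% of regions in the genome passed in cDC1 and 22.5% in pDC, the counts were 3 and 5. By fold enrichment, the ratio of a peak's signal to its background as MACS2 gives it, divided by its own genome-wide median of 1.45 and called at 2-fold, with 5.80% in cDC1 and 6.34% in pDC over the genome, 1 of 19 regions was called higher in cDC1 and 2 higher in pDC, and Ets1 region 17 alone kept its call. The median scaled ratio on the log2 scale, cDC1 over pDC, was 0.14 over 8 regions at Spi1, -0.01 over 5 at Spib and -0.62 over 4 at Ets1, beside -0.01 over all regions. By fold enrichment the medians of the loci were -0.26 over 9 regions, 0.13 over 5 and 0.05 over 5.

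**Figure D2:**
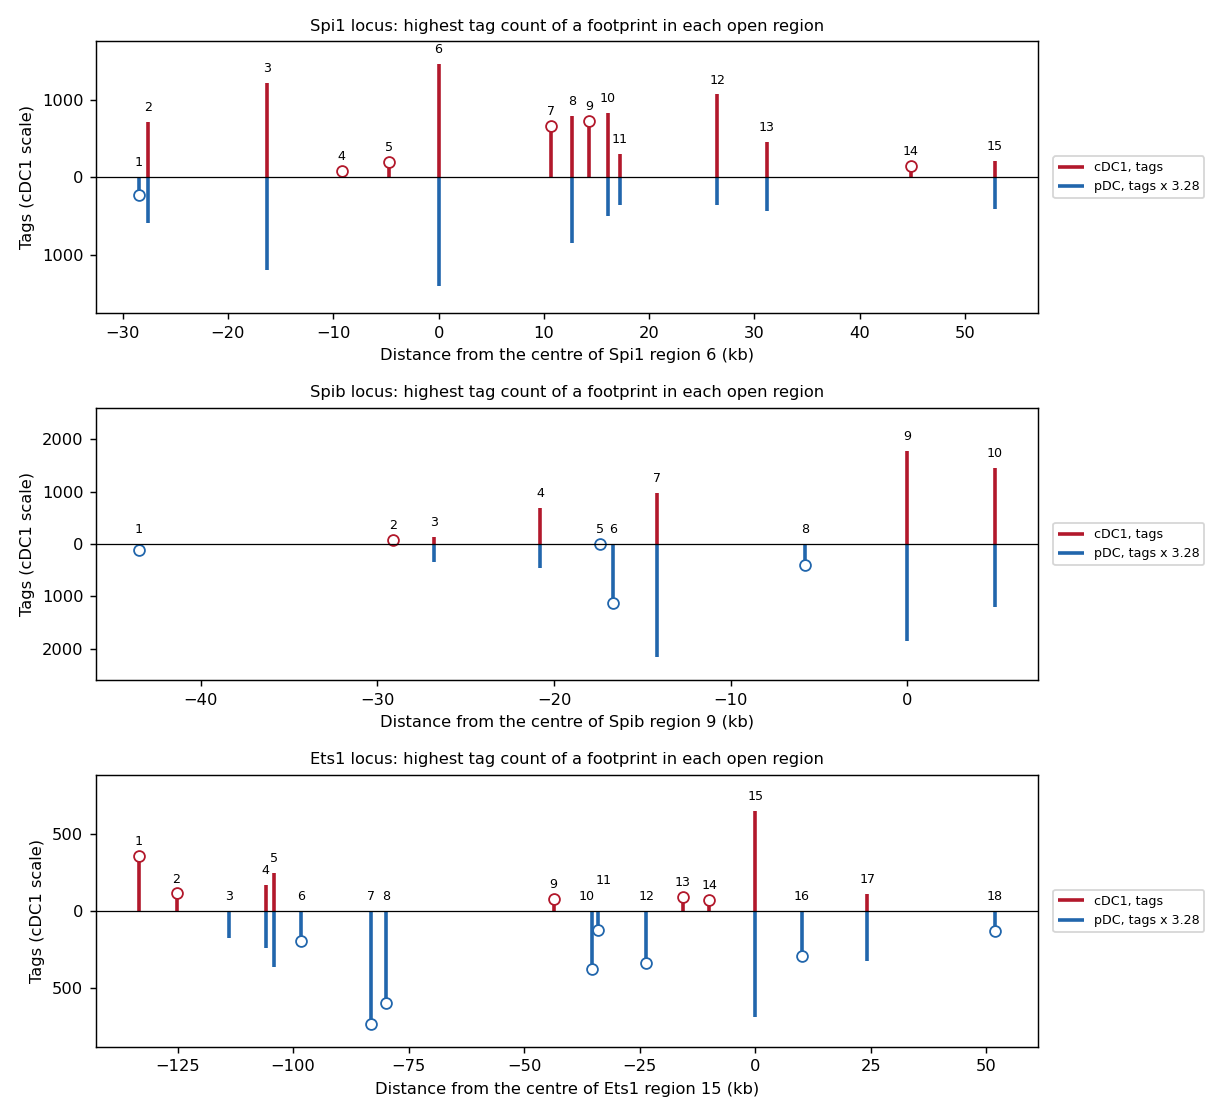
Highest tag count of a footprint in each open region (y axis, cDC1 upwards and pDC, multiplied by 3.28, downwards) against the distance in kb from the region with the largest cDC1 −log10 q of each locus (x axis); numbers are region numbers and open circles mark regions found in one cell type only. The circle on the zero line at Spib is region 5, which held 0 footprints, and Ets1 region 3 has no cDC1 bar because it held 0 cDC1 footprints; region 7 at Spib reaches 983 tags in cDC1 and 661 unscaled tags in pDC.

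At Spi1, the strongest region was the same in both cell types and had close levels after scaling. Region 6, on chromosome 2 from 90910129 to 90911093, reached a −log10 q of 479 for cDC1 and 156 for pDC, where q is the false discovery rate MACS2 gives a peak, so that larger values mark clearer peaks. It ranked above 97.9% of the cDC1 list and 98.8% of the pDC list. Its 6 cDC1 footprints had 832 to 1466 tags and its 5 pDC footprints 352 to 429. The pair with the most tags had 1466 in cDC1 and 386 in pDC, a scaled log2 ratio of 0.21 (exact 95% interval 0.05 to 0.38), far inside the 2-fold limits. By fold enrichment the scaled log2 ratio was -0.37, in the other direction and also inside the limits.

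Region 3, 16.2 kb from region 6 and placed from 90893907 to 90894823, was second in both lists (−log10 q 402 in cDC1, 96.6 in pDC). It held 12 cDC1 and 11 pDC footprints, and its leading pair had 1225 tags in cDC1 and 368 in pDC, a scaled log2 ratio of 0.02 (-0.15 to 0.20). Region 8, from 90923012 to 90923493, was the third in pDC, its −log10 q being 90.5 in cDC1 and 43.6 in pDC. Its pair had 789 tags in cDC1 and 246 in pDC, a scaled log2 ratio of -0.03 (-0.24 to 0.18). The interval of either ratio holds 0. By fold enrichment, region 8 was higher in pDC at -1.01.

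Spi1 region 12, from 90936576 to 90937577, was the region of the loci called higher in cDC1. Its −log10 q was 248 in cDC1, the third largest of the locus, and 9.90 in pDC, below the pDC median of 13.5. Both cell types had 2 summits and 10 footprints there, and their leading summits lay 3 bp apart. The cDC1 footprints had between 126 and 1073 tags and the pDC footprints between 53 and 111. All 3 pairs of the region went the same way, with 1040, 1028 and 857 tags in cDC1 against 109, 111 and 107 in pDC. The pairs lie close together and may share tags, so they are not repeats of one another. After scaling, the pair with the most tags was 2.91-fold higher in cDC1 (log2 1.54, 1.26 to 1.84), and the call would end at a scaling ratio above 4.77. By fold enrichment the value was 0.97, just under the limit. Set against region 6 of the same list, region 12 had 70.9% of its tags in cDC1 and 28.2% in pDC. This contrast uses the same pair counts again, with region 6 in place of the genome-wide scaling ratio. The position of the leading summit and the number of footprints were thus alike in both cell types, while tag counts differed. Only 3 pairs could be made from the 10 footprints of each cell type.

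The middle of the Spi1 window held a cluster of 5 regions, numbers 7 to 11, within 10.7 to 17.2 kb of region 6. Regions 7 and 9 of this cluster were found in cDC1 only, at a −log10 q of 80.1 and 72.0, and had highest tag counts of 669 and 728. Divided by 3.28 these would be 204 and 222 tags, above 75.7% and 78.5% of open regions in the pDC list. Between them lay region 8, open in both. Region 10 was open in both cell types, with a pair of 828 tags in cDC1 and 154 in pDC, a scaled log2 ratio of 0.72 (0.47 to 0.97), under the limit. Region 11 had 3 cDC1 and 8 pDC footprints, of which none could be paired.

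The other regions of the Spi1 window were weaker or nearly level. Region 2, at 237.7 in cDC1 and 41.4 in pDC on the −log10 q scale, had a scaled log2 ratio of 0.28 (0.04 to 0.52) and region 13 one of 0.08 (-0.21 to 0.36). Region 15, with 181 tags in cDC1 and 88 in pDC, leaned to pDC at -0.67 (-1.05 to -0.29). The remaining cDC1 regions, 4, 5 and 14, had a −log10 q of 2.50, 4.57 and 7.20, and the pDC region 1 had 8.08, all below the median of their list.

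At Spib, the order of the leading regions differed between the cell types. Region 9, from 51803739 to 51804548 on chromosome 7, was first in cDC1 (−log10 q 526) and second in pDC (116). Region 7, from 51789480 to 51790417, was second in cDC1 (335) and first in pDC (141). Region 10, from 51808496 to 51809688, was the third in both, with 312 in cDC1 and 60.7 in pDC. Region 9 had a pair of 1685 tags in cDC1 and 517 in pDC, level after scaling at a log2 ratio of -0.01 (-0.15 to 0.14). Region 10 had 1459 tags in cDC1 and 367 in pDC, a log2 ratio of 0.28 (0.11 to 0.45).

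Region 7 was called higher in pDC. Its 4 cDC1 footprints had 99, 521, 954 and 983 tags, and its 15 pDC footprints had a lowest count of 327, a median of 445 and a highest of 661. All 3 pairs went the same way, with 521, 954 and 983 tags in cDC1 against 345, 584 and 661 in pDC. These pairs too may share tags and are not repeats. After scaling the leading pair was 2.20-fold higher in pDC (log2 cDC1 over pDC -1.14, -1.28 to -0.99), and the call would end at a scaling ratio below 2.97. Set against region 9 within each list, region 7 had 58.3% of its tags in cDC1 and 128% in pDC. This contrast uses the same pair counts again and is not separate evidence. The open interval was also longer in pDC, at 692 bp in cDC1 and 938 bp in pDC, and the pDC footprints reached over the right part of the region, where cDC1 had none. Fold enrichment went the other way, at 12.7 in cDC1 and 6.57 in pDC, which is 0.42 in favour of cDC1 on the log2 scale after scaling. Which of the measures is nearer to accessibility was not tested. At one fold enrichment the −log10 q took a wide range of values in both lists, and tag counts have no background taken out.

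**Figure D3:**
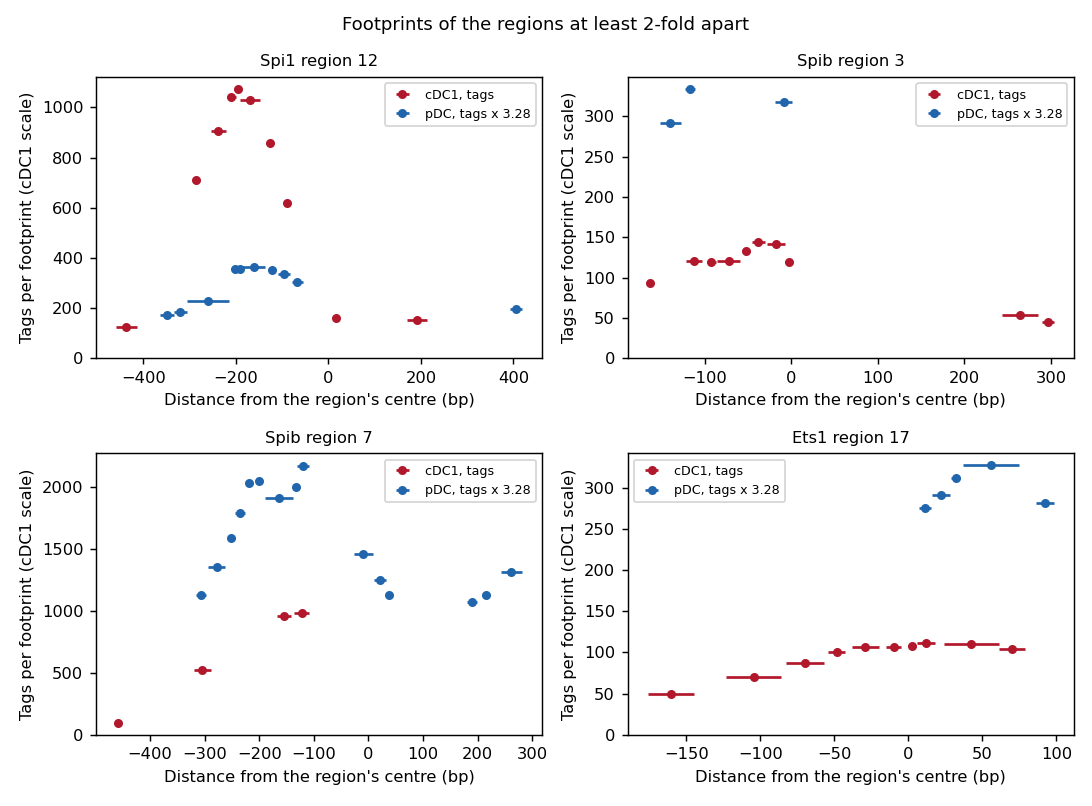
Tag count of each footprint (y axis, pDC multiplied by 3.28) against its distance in bp from the centre of the region (x axis) for the 4 regions called at least 2-fold apart; points are footprint centres and horizontal bars their widths. At Spi1 region 12 the cDC1 points reach 1073 tags, and at Spib region 7 the 15 pDC points spread over a wider stretch than the 4 cDC1 points.

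Next to region 7 lay regions 5 and 6, both found in pDC only, at a −log10 q of 21.7 and 35.4. Region 5 held 0 footprints and region 6 held 1, with 344 tags. Multiplied by 3.28 this would be 1127 tags, above the highest counts of 93.4% of open regions in the cDC1 list, yet no cDC1 interval was listed there. Their fold enrichment was modest, at 2.71 and 3.24, against a pDC list median of 4.16. Regions 5 to 7 therefore formed a group 14.2 to 17.4 kb from region 9, open in pDC at 3 places and in cDC1 at 1.

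Regions 3 and 4 of Spib lay further out on the same side and went opposite ways. Region 3, from 51777051 to 51777656, had a pair of 142 tags in cDC1 and 97 in pDC and was called 2.24-fold higher in pDC (log2 cDC1 over pDC -1.16, -1.54 to -0.77), a call that would end at a scaling ratio below 2.93. Its second pair had 121 tags in cDC1 and 102 in pDC. This was a weak region, with a −log10 q that was 15.4 in cDC1 and 9.41 in pDC, and by fold enrichment the scaled log2 ratio was only -0.20. Region 4, whose −log10 q was 158 in cDC1 and 3.09 in pDC, leaned to cDC1 with 698 tags in cDC1 and 141 in pDC (0.60, 0.33 to 0.87), and more so by fold enrichment (1.80). Its leading summits lay 162 bp apart, the widest distance of the 19 regions of the loci open in both cell types. Of the others in this window, region 8 was found in pDC only at a −log10 q of 13.5, just under the list median, with 8 footprints of 84 to 123 tags. Regions 1 and 2 were weak, at 4.06 in pDC and 3.66 in cDC1.

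At Ets1, regions were further apart, tags were fewer, and pDC had the larger share of regions of its own. The median gap between neighbouring regions was 8.01 kb, against 4.18 kb at Spi1 and 3.95 kb at Spib. The median footprint had 112 tags in cDC1 and 90 in pDC, where the lists as a whole had 212 and 100. By −log10 q, one region stood above the rest in both cell types. Region 15, from 32503216 to 32504021 on chromosome 9, reached 237 for cDC1 and 49.3 for pDC on the −log10 q scale, the largest of the locus in each list. It held 10 cDC1 and 8 pDC footprints and its leading summits lay 2 bp apart. By highest tag count it was the first in cDC1, at 649, but in pDC its 210 tags were below the 225 of region 7. The leading pair had 649 tags in cDC1 and 210 in pDC, level after scaling (log2 -0.08, -0.31 to 0.15).

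The strongest regions of Ets1 found in pDC only were regions 7 and 8, 83.2 and 79.9 kb from region 15. Region 7, from 32420016 to 32420893, had a −log10 q of 27.1, 2 summits and 14 footprints of 122 to 225 tags. Region 8, from 32423521 to 32423924, had 28.8 and 6 footprints of 56 to 183 tags. Multiplied by 3.28, the highest counts would be 737 and 599 tags, above those of 84.9% and 80.2% of open regions in the cDC1 list. No cDC1 interval lay between region 5 and region 9, so intervals of this stretch were listed in pDC alone.

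Regions 10, 12 and 16 were also found in pDC only above the median of the list, at a −log10 q of 20.4, 18.1 and 20.4. Their highest tag counts were 115, 104 and 89. Regions 6, 11 and 18 were weaker, at 6.11, 2.85 and 1.94. In cDC1, region 1, from 32369906 to 32370524, was the strongest of its own, at a −log10 q of 102 with 12 footprints of 51 to 358 tags. Divided by 3.28 its highest count would be 109 tags, above 51.0% of open regions in the pDC list. The other cDC1 regions of Ets1, 2, 9, 13 and 14, had a −log10 q of 16.7, 5.83, 6.80 and 3.59, all below the list median of 30.4.

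All 4 regions of Ets1 with a pair had a scaled log2 ratio of tag counts below 0, whereas by fold enrichment 3 of them lay above 0, at 0.054 to 0.26. Region 17, from 32527615 to 32528026, was called higher in pDC, with pairs of 110 and 111 tags in cDC1 against 100 and 84 in pDC. The pair with the most tags was 2.98-fold higher in pDC after scaling (log2 cDC1 over pDC -1.57, -1.98 to -1.17), and the call would end at a scaling ratio below 2.20. Its −log10 q was 10.6 in cDC1 and 17.1 in pDC, so that it was larger in pDC although the values of the pDC list are lower in general. Here fold enrichment gave the same direction, at 3.46 in cDC1 and 5.46 in pDC, a scaled log2 ratio of -1.19. Set against region 15 within each list, region 17 had 16.9% of its tags in cDC1 and 47.6% in pDC, which again uses the same pair counts.

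Regions 4 and 5 of Ets1 leaned the same way without reaching the limit. Region 4 had 122 tags in cDC1 and 60 in pDC (log2 -0.69, -1.15 to -0.22), and region 5, the third of the locus in cDC1 at a −log10 q of 45.1, had 249 in cDC1 and 111 in pDC (-0.55, -0.87 to -0.21). Region 3 was open in both cell types but held 0 cDC1 and 7 pDC footprints.

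**Figure D4:**
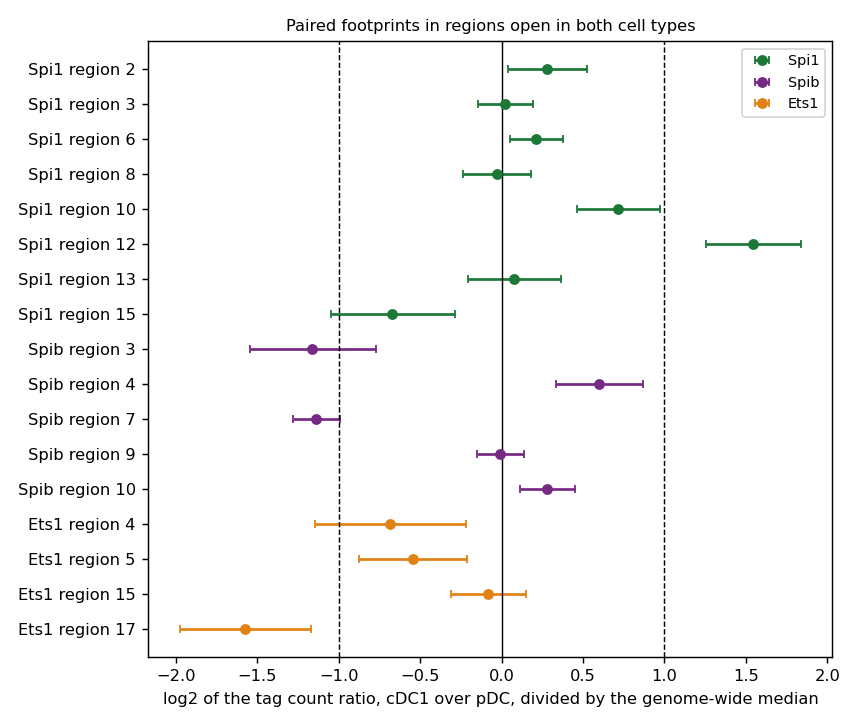
Ratio of the tag counts of the leading pair of footprints, cDC1 over pDC, divided by the genome-wide median and given as log2 (x axis), for the 17 regions with a pair (y axis). Bars are exact 95% intervals for counting error and dashed lines are the 2-fold limits; Spi1 region 12 lies at 1.54, and Spib regions 3 and 7 and Ets1 region 17 lie between -1.57 and -1.14.

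Footprints were found again in the other cell type more often at Spi1 and Spib than at Ets1, with intervals that overlapped in part. A footprint was counted as shared where at least 50% of its bases lay in footprints of the other cell type. At Spi1, 41 of 93 cDC1 footprints (44.1%, exact 95% interval 33.8 to 54.8%) and 40 of 71 pDC footprints (56.3%, 44.0 to 68.1%) were shared. At Spib the shares were 24 of 46 in cDC1 (52.2%, 36.9 to 67.1%) and 25 of 54 in pDC (46.3%, 32.6 to 60.4%), and at Ets1 18 of 68 (26.5%, 16.5 to 38.6%) and 17 of 82 (20.7%, 12.6 to 31.1%). Over the whole lists 28.6% of cDC1 and 44.4% of pDC footprints were shared.

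Inside intervals open in both cell types the loci came closer together. There 70.7% of 58 cDC1 and 58.0% of 69 pDC footprints of Spi1 were shared, 58.5% of 41 and 56.8% of 44 at Spib, and 52.9% of 34 and 58.6% of 29 at Ets1. The whole lists had 47.9% in cDC1 and 52.7% in pDC. Over all footprints, the share at Ets1 was low in pDC, at 20.7% beside 44.4% for the whole list. In cDC1 it was near the whole list, at 26.5% beside 28.6%. In a region found in one cell type only, no footprint can be shared, by construction.

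Neither cell type had more footprints throughout. In the 19 regions open in both cell types, cDC1 had more footprints in 9, pDC in 8 and both the same number in 2. In the genome, cDC1 had more in 22447 such regions, pDC in 14001 and both the same number in 4273. Spib region 7 had the widest difference, with 4 footprints in cDC1 and 15 in pDC. The leading summits of the 2 cell types lay within 50 bp of each other in 16 of the 19 regions, a median of 15 bp apart, beside 70.1% and a median of 30 bp in the genome. Footprints covered 27.3% of the open bases of the loci in cDC1 and 28.9% in pDC, beside 24.1% and 25.3% over the whole lists.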

How the data were processed

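Omni-ATAC-seq of 4 samples, 2 of cDC1 and 2 of pDC, was used as deposited. By the methods of the study, Trim Galore was used for trimming, Bowtie2 for alignment to mm9 and samtools to filter by quality and take out duplicates. Peaks came from MACS2 and footprints from HINT-ATAC after the authors merged the replicates. No source used here gives tool versions. Elsewhere the methods speak of mm10, but on 8 of 21 chromosomes a listed position exceeds the length in GRCm38. Coordinates were therefore taken as mm9 and are printed 1-based.

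The peak lists deposited by the authors hold, for each summit, a fold enrichment, a −log10 p (not used), a −log10 q and a whole-number score equal to 10 times that value. The methods name the MACS2 option that switches off a local background. At a deposited fold enrichment between 3.9 and 4.1, however, the −log10 q ran from 14.1 to 225 in cDC1 and from 8.41 to 65.6 in pDC, so that ratio was used only as an alternative. The footprint lists as deposited give a whole number per footprint, taken to be its tag count without scaling. The counting window is not given, and neighbouring footprints may share tags. In an example, counts did not follow footprint width. In cDC1 at Spib region 10, a footprint of 5 bp had 1415 tags and its neighbour of 11 bp had 1459. The counts were therefore taken as a level around the footprint, not as cuts inside it. Their relation to width over the lists was not tested. Reads are PCR products without molecular identifiers, and both ends of a fragment may have been counted, so intervals may be too narrow.

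Summits that shared one start and one end were taken as 1 interval, which received the largest −log10 q among them. Pairs of footprints were made 1 to 1, most shared bases first. Shares have exact Clopper-Pearson intervals at 95%, and ratios of 2 counts the corresponding exact interval. The members, lists and rules were chosen with earlier results of these data known. Named by rule were, in each locus, the 3 regions with the largest −log10 q in each cell type, all regions called at 2-fold, and all regions of one cell type at or above the median −log10 q of their list; region 8 of Spib, just under that median, was named after its values were seen, as were the remaining regions, given in brief. The anchor regions for comparisons within a list, the shared region of each locus that had the highest cDC1 tag count, were also chosen after the values were seen. Other ETS genes and marker genes were planned but not computed, since an mm9 annotation was not used here. Steps were tested on simulated data. There the second list kept coordinates of the first, so the pairing of shifted or split footprints was not tested. Python 3.11.15, numpy 2.4.6, pandas 2.3.3, scipy 1.17.1 and matplotlib 3.10.9 were used.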

Additional observations from a re-analysis of the deposited data

How the results depend on the processing

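No paired analysis was possible because replicates had been merged into a single list per cell type, and for the same reason no replicate could be left out. Other scalings, another choice of pair and narrower windows changed none of the calls at 2-fold. The ratios of the other scalings, 3.32 and 3.37, lay close to 3.28 and could not have ended a call. The cDC1 call ends above 4.77 and the pDC calls below 2.97, 2.93 and 2.20. Fold enrichment, an alternative chosen after the values were seen, turned Spib region 7 round (0.42) and took Spi1 region 12 (0.97) and Spib region 3 under the limit. By it 0 regions were called higher in cDC1 and 1 in pDC (region 8, -1.01) at Spi1. At Spib 1 was called in cDC1 (region 4, 1.80) and 0 in pDC. Over the genome 5.80% of regions were called in cDC1 and 6.34% in pDC. The median scaled log2 ratio by fold enrichment was -0.26 at Spi1, 0.13 at Spib and 0.054 at Ets1, each with the sign opposite to that by tag counts. At a limit of 1.5-fold, which 18.2% and 22.5% of regions in the genome pass in cDC1 and in pDC, 2 regions were called in cDC1 and 1 in pDC at Spi1, 1 in cDC1 and 2 in pDC at Spib, and 0 in cDC1 and 2 in pDC at Ets1. With a −log10 q of at least 10, Ets1 kept 6 intervals in cDC1 and 8 in pDC. At Spi1 100% of 7 pDC intervals were shared, as with narrower windows, beside 90% of 10 without these limits. Over the whole pDC list 80.3% of intervals were shared. With the cDC1 lists limited to the length of the pDC lists, which removes weak cDC1 entries by construction, Ets1 had 4 cDC1 intervals. At Spib 100% of 4 cDC1 intervals were shared, beside 83.3% of 6 before and 49.1% over the whole cDC1 list. The cDC1 footprints numbered 30 at Spib and 26 at Ets1. The shared footprints of cDC1 were 56.2% at Spi1, 70.0% at Spib and 46.2% at Ets1. Before they were 44.1%, 52.2% and 26.5%, and 28.6% over the whole cDC1 list. Those of pDC at Ets1 were 12.2%, beside 20.7% before and 44.4% over the whole list. All whole-list shares here are those without these limits. With footprints under the median tag count of their list left out, 28 in cDC1 at Spib, and 19 in cDC1 and 36 in pDC at Ets1 remained. Only inside shared intervals, the shares of shared footprints were 70.7% in cDC1 at Spi1, and 52.9% in cDC1 and 58.6% in pDC at Ets1. The whole lists had 47.9% in cDC1 and 52.7% in pDC there. The narrower windows moved the median of Spib to -0.57 by leaving out region 10. A region listed in one cell type only may be open at a lower level in the other; whether depth kept it out of the other list was not tested.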
